A study of Mus musculus with 28 samples.

Results

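Keratins 1, 10, 4, 13, 6a, 6b and 16 are the keratins that stratified squamous epithelia make in their outer layers or under stress, and their mRNA levels were followed in tissues of p63 knockout (KO) and wild-type (WT) mouse embryos. The 7 genes (Krt1, Krt10, Krt4, Krt13, Krt6a, Krt6b and Krt16) were taken by gene symbol from 18193 genes that had a probe set with a single symbol on an Affymetrix mouse expression array. Each gene was read from the probe set with its highest mean over the 28 arrays, and the genes had 12 such probe sets in all. A gene entered the tests when its probe set exceeded the median of the array on 2 or more arrays, and 6 of the 7 did so, among 13613 genes tested. Krt1 did so only on the 2 WT proximal stomach arrays, and Krt13 and Krt6b only on proximal stomach arrays. Counts that compare WT proximal stomach with other groups therefore depend partly on this filter. Krt16 passed the median on 1 array only, so its changes come from the same model run on all 18193 genes. Where a count is given out of 6, Krt16 is not in it.

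Total RNA came from Balb/c embryos of both genotypes. The KO groups were bladder at embryonic day 15 (E15), day 18 (E18) and day 19 (E19), and, at E18, the stomach in a proximal and a distal piece, the small intestine and the large intestine. The WT groups were the same tissues at the same days, so there were 14 groups with 2 arrays each. The p63 allele, the way tissues were dissected and how many animals were used are not stated in the sources used here. Whether the 2 arrays of a group come from separate animals is also unstated, so p-values measure the spread between these samples, which may be technical. Changes are KO minus WT on the log2 scale unless stated otherwise, SE is the standard error of the limma model, and p is limma's p with Benjamini-Hochberg adjustment over all genes tested. Calls were made at adjusted p-values under 0.05. With 2 arrays a side an exact permutation test reaches 0.333 at best, so each call depends on a spread that limma pools over genes and groups.

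Keratins are the intermediate filament proteins of epithelial cells, and each filament is built from a type I and a type II chain in equal amounts. Stratified epithelia change the pair as cells leave the basal layer. Epidermis makes Krt1 (type II) with Krt10 (type I) above its basal cells, while internal linings such as oral mucosa and oesophagus make Krt4 (type II) with Krt13 (type I). Krt6a and Krt6b (type II) and Krt16 (type I) are made in hair follicles and in some oral and palmoplantar epithelia, and are switched on in wounded or hyperproliferative epidermis. The proximal stomach of the mouse is a forestomach lined by a keratinised squamous epithelium, whereas the distal stomach is glandular and the bladder is lined by urothelium. p63, encoded by Trp63 in mouse, is a transcription factor of the basal cells of stratified epithelia.

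The upstream sequence of Krt10 and Krt13 is shown because these are the type I chains of the epidermal and the mucosal pair, of which Krt10 fell and Krt13 did not pass the test in KO proximal stomach. Both genes lie on the minus strand of chromosome 11. The 250 bases before the start site are from RefSeq on mouse assembly GRCm38.p6, for Krt10 at chr11:99389365-99389614 and for Krt13 at chr11:100121567-100121816, written 5′ to 3′ along the gene. RefSeq has a further start for Krt13, and the outermost one is shown. Capitals mark a TATA element (TATAAA) or an AP-1 motif (TGANTCA), each searched on both strands.
Krt10: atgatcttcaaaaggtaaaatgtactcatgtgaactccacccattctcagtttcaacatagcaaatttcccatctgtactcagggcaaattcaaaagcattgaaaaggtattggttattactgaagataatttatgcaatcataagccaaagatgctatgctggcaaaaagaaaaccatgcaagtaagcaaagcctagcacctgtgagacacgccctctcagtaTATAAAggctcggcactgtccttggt
Krt13: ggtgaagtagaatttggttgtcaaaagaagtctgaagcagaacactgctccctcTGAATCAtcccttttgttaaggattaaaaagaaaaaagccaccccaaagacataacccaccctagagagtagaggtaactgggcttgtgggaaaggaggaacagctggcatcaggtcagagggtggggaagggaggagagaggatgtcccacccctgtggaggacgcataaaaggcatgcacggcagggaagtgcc
The Krt10 window held TATAAA, beginning 26 bases before the start, and no TGANTCA. The Krt13 window held TGANTCA, beginning 196 bases before the start, and no TATAAA. Neither window held the p63-type pattern of CATG, any 6 bases and CATG, searched on both strands. Of 32851 windows of the same length in the RefSeq table, 12.4% held TATAAA, 6.75% held TGANTCA and 0.49% held the p63-type pattern. Both strands were searched in each. These matches describe letters in the windows and say nothing of binding.

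In WT tissues all 7 keratins were at their highest in proximal stomach. Against WT distal stomach, 6 of 6 members were higher in WT proximal stomach, where 40.4% of all genes were called in either direction. The differences were 6.73 for Krt1, 4.62 for Krt10, 8.80 for Krt4, 8.68 for Krt13, 5.54 for Krt6a and 6.41 for Krt6b, with all adjusted p-values in limma at or below 6.32e-08. Krt16 was higher by 2.50 in the model without the filter. Against WT bladder E18, 6 of 6 members were likewise higher in WT proximal stomach, where 46.6% of all genes were called.

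The order of the groups differed between the 3 sets of keratins. For Krt1 and Krt10, WT proximal stomach stood alone, 5.95 and 3.73 above the next group, and no other neighbours in the order differed beyond limma's 95% interval for a difference (0.55 for Krt1 and 0.31 for Krt10). For Krt4 and Krt13, the KO and WT proximal stomach groups lay together at the top, and the next group was lower by 3.49 for Krt4 (WT bladder E18) and by 7.43 for Krt13 (KO distal stomach). Krt6a and Krt6b had both proximal stomach groups at the top, with KO first for Krt6a (12.98 ± 0.42 in KO and 11.52 ± 2.08 in WT, SD, n = 2) and WT first for Krt6b (7.80 ± 0.52 in KO and 9.78 ± 0.31 in WT). For Krt16 only WT proximal stomach stood out, 1.81 above WT bladder E19.

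**Figure D1:**
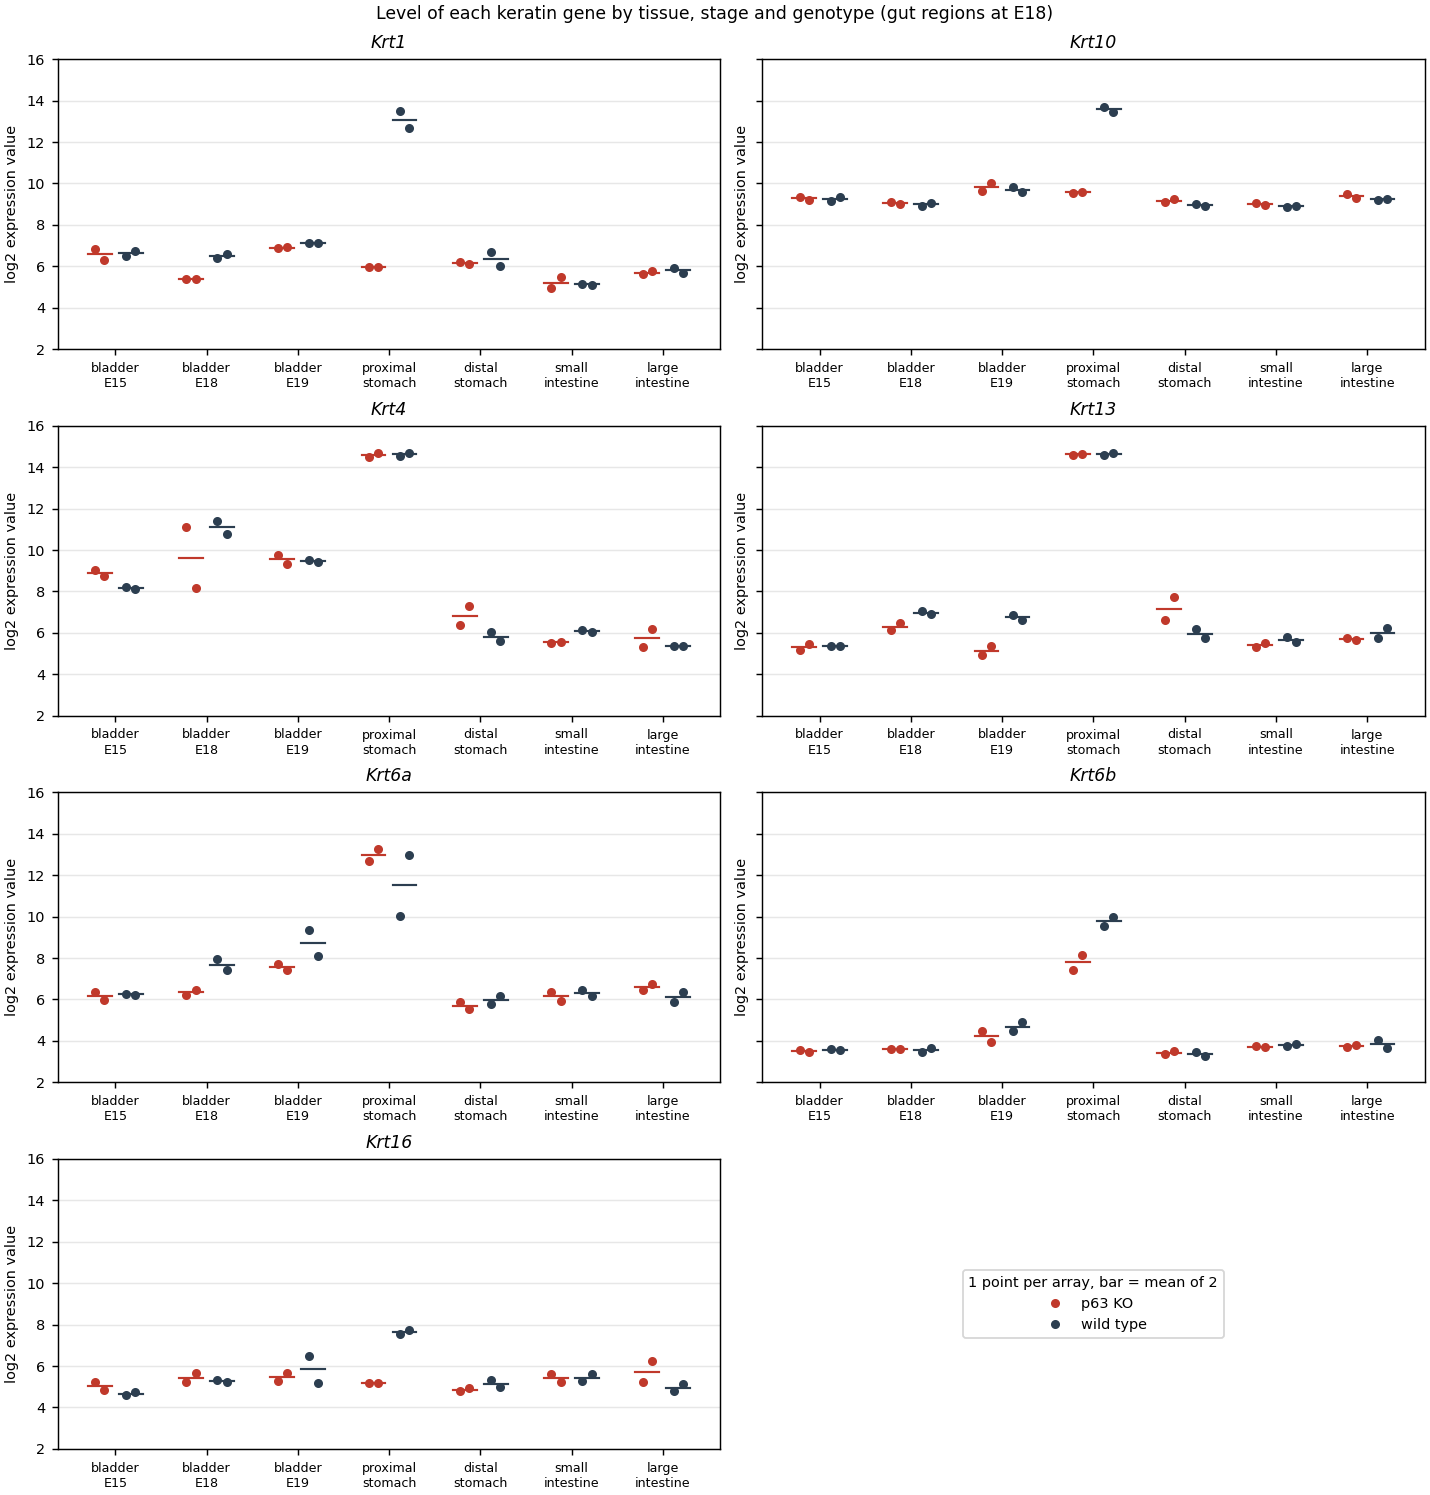
Level of each keratin (log2 expression value, vertical axis) by tissue and stage (horizontal axis), with KO points left of WT points, 1 point per array and a bar at the mean of 2. Krt1 and Krt10 are high in WT proximal stomach and not in KO proximal stomach, while Krt4 and Krt13 lie above 14.5 on all 4 proximal stomach arrays.

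In KO proximal stomach the epidermal pair fell to the level of tissues without a squamous lining, while the mucosal pair stayed at the top of the array's scale. Of the 6 members, 3 fell and none rose (Krt1, Krt10 and Krt6b), where 32.7% of all genes were called. The median change of the 6 was -1.01, against 0.02 over all genes. Krt1 changed by -7.11, Krt10 by -4.00 and Krt6b by -1.98 on the log2 scale, and Krt16 changed by -2.46 in the model without the filter, which called 26.3% of its genes. On the KO arrays 71.6% and 72.3% of probe sets lay above Krt1 and 80.8% and 82.5% above Krt16, levels that may be background, so the true decreases of these genes may be larger. Krt4 and Krt13 differed by less than 0.04 on the log2 scale between the group means.

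The epidermal pair came first. Krt1 had 5.98 and 5.95 on the KO arrays, against 13.47 and 12.67 on the WT arrays. Both KO values were below the array median, and they lay within the range of tissues without a squamous lining, such as WT distal stomach at 6.35 ± 0.47 (SD, n = 2). The change was -7.11 (SE 0.26, adjusted p = 1.05e-14 in limma). Krt10 had 9.54 and 9.60 on the KO arrays, against 13.70 and 13.45 on the WT arrays, a change of -4.00 (SE 0.15, adjusted p = 1.02e-14 in limma). The probe set of Krt10 was above the array median on all 28 arrays, and outside WT proximal stomach its group means spanned 8.90 to 9.84, a span that held its KO level. In bulk tissue, fewer cells of a type and less RNA per cell cannot be told apart.

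The mucosal pair did not pass the test. Krt4 had 14.51 and 14.66 on the KO arrays, against 14.55 and 14.69 on the WT arrays, a change of -0.04 with a 95% interval of -1.16 to 1.09 (adjusted p = 0.968 in limma). Krt13 had 14.57 and 14.64 on the KO arrays, against 14.59 and 14.69 on the WT arrays, a change of -0.04 with a 95% interval of -0.61 to 0.53 (adjusted p = 0.935 in limma). The groups overlapped for both genes. On these arrays between 0.0844% and 0.202% of probe sets lay above Krt4 or Krt13, and the highest value of any array was 15.40, so a difference between high levels could be compressed, which was not tested. The second probe set of Krt4 gave 14.07 and 14.24 in KO and 14.10 and 14.21 in WT. The other probe sets of Krt13 read far lower, at 8.05 and 8.73 in KO and 8.13 and 8.32 in WT for one, and at 7.07 and 7.97 in KO and 6.50 and 6.91 in WT for the other. The last of these did not pass the filter, and neither of the other 2 was called with limma run on each probe set on its own, where 29.6% of probe sets were.

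Among the stress keratins, Krt6b and Krt16 fell, while Krt6a was not called. Krt6a had 12.69 and 13.28 on the KO arrays, against 10.04 and 12.99 on the WT arrays. The groups overlapped, with the first WT array well below the other 3 arrays. The change was 1.46 (SE 0.56, adjusted p = 0.0522 in limma), and the 2 other Krt6a probe sets showed the same low WT array, at 10.24 and 9.56 against 12.94 and 11.65 on the second WT array. That array decided the value, since the change was -0.01 (adjusted p = 0.991) without it and 2.94 (adjusted p = 1.16e-05) without the second WT array. With the replicate number as a block the adjusted p was 0.0129.

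Krt6b, which lies next to Krt6a on chromosome 15 with no coding gene between them, was lower in KO. It had 7.43 and 8.16 on the KO arrays, against 9.56 and 10.00 on the WT arrays, a change of -1.98 (SE 0.27, adjusted p = 5.01e-06 in limma). The groups did not overlap. Krt6a and Krt6b are near-identical in sequence, so their probe sets may share signal and the split between the genes is uncertain. Krt16, the type I partner of both, had 5.20 and 5.17 on the KO arrays, against 7.53 and 7.76 on the WT arrays. Its change was -2.46 (SE 0.33, adjusted p = 7.68e-06 in limma without the filter), with WT values near the array median and KO values far below it.

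**Figure D2:**
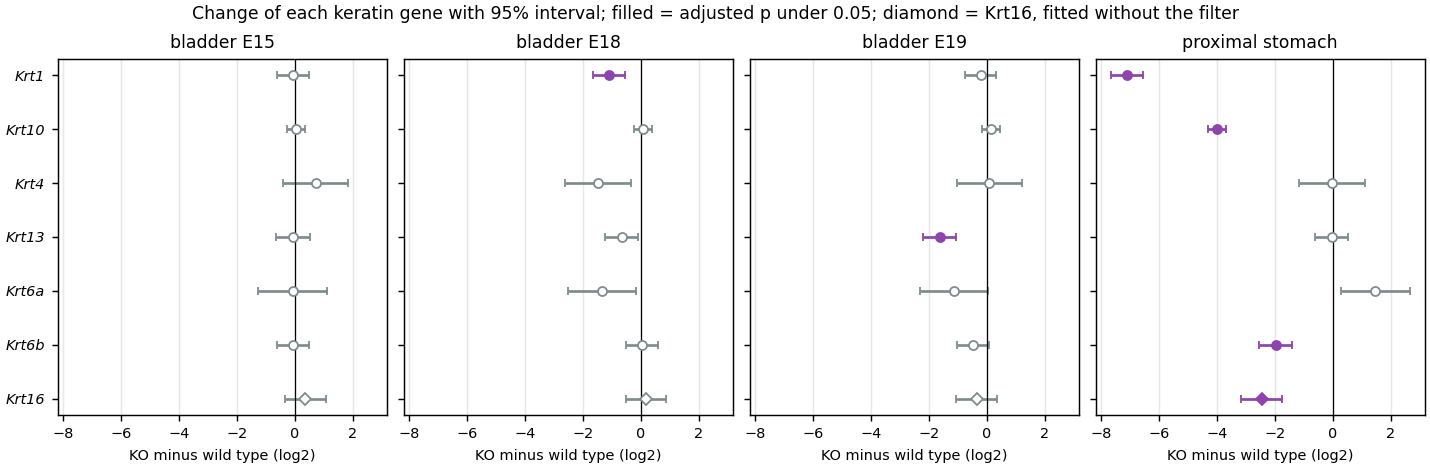
Change of each keratin (KO minus WT, log2, horizontal axis) in 4 panels for bladder E15, E18 and E19 and proximal stomach, with 95% intervals from limma, filled points where the adjusted p was under 0.05, and a diamond for Krt16. Krt1 (-7.11) and Krt10 (-4.00) stand far left in proximal stomach, and the bladder changes are smaller than in proximal stomach for both.

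Other keratins of proximal stomach changed in both directions in KO, where 18.1% of all genes rose and 14.6% fell. Of the 4 basal keratins, 3 fell, with Krt5 changed by -5.80, Krt14 by -5.54 and Krt17 by -1.78, while Krt15 differed by 0.63 (adjusted p = 0.412). Of the 6 simple-epithelial keratins, 5 rose, namely Krt20 (5.92), Krt18 (3.76), Krt7 (2.31), Krt19 (2.24) and Krt8 (0.92), and Krt23 fell by 2.67. Among other keratins of differentiated squamous cells, 4 of 9 listed genes were tested and 3 of them fell, Krt76 (-2.92), Krt78 (-1.55) and Krt80 (-1.02), while Krt79 differed by -0.71 (adjusted p = 0.127). Krt76 marks palate and other keratinised oral sites. Of 22 hair keratins listed, 5 were tested and 2 rose, Krt31 (2.98) and Krt34 (1.19).

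**Figure D3:**
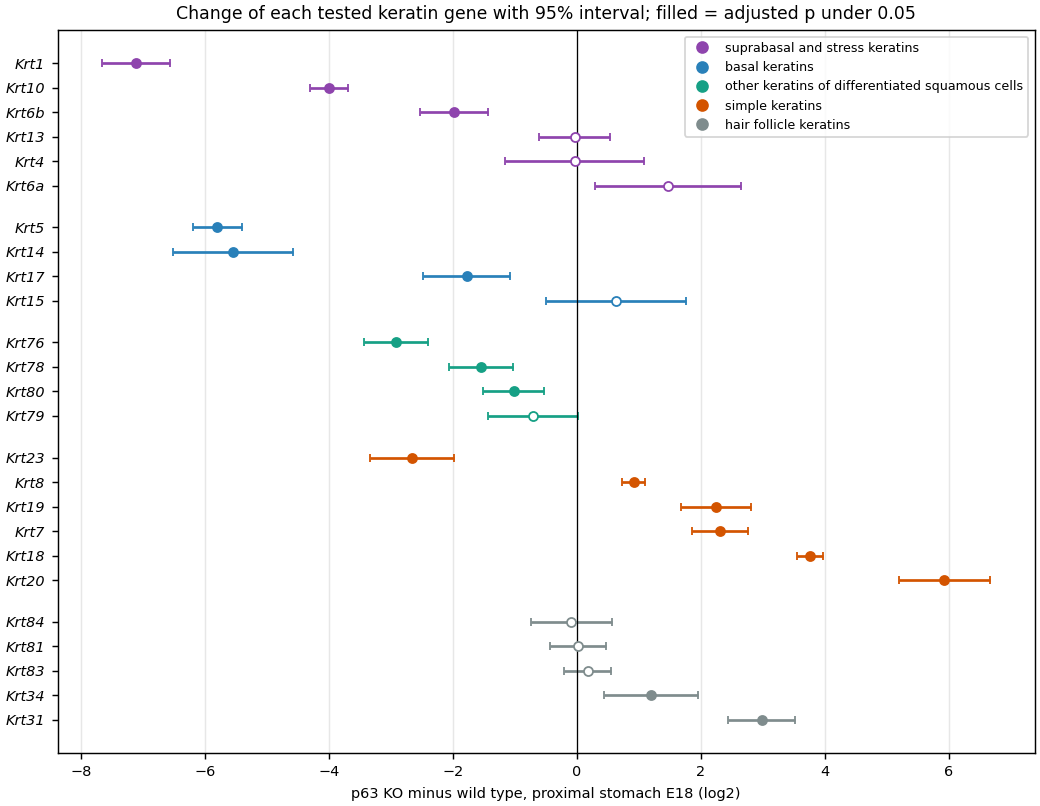
Change of each tested keratin gene in proximal stomach at E18 (KO minus WT, log2, horizontal axis) with 95% intervals from limma, in groups coloured by the kind of keratin, filled where the adjusted p was under 0.05. Krt1, Krt10, Krt5 and Krt14 lie at -4.00 or lower, Krt4, Krt13 and Krt15 have intervals that cover 0, and Krt20 and Krt18 lie at the right.

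Most cornified envelope genes and 7 of 14 junction genes also fell in KO proximal stomach, where 18.1% of all genes rose and 14.6% fell. Of 18 tested genes of the envelope, the cross-linked protein shell of dead surface cells, 16 fell and 1 rose, with a median change of -4.47. A gene above the median only in WT proximal stomach enters the tests through that group, which favours decreases in such lists. The largest decreases were those of Lce3f (-10.08), Lce3a (-9.60), Hrnr (-9.44) and Flg (-8.86), which encodes filaggrin, the protein that bundles keratin filaments. The 1 that rose was Tchh (2.48), trichohyalin of the hair follicle inner root sheath, named after its value was seen. Of 14 tested genes for desmosomes and other keratin anchors, 7 fell and 1 rose (Plec, 0.81, named likewise), with a median of -0.51, and 6 were not called. The largest of these decreases were those of Cdsn (-9.08), the corneodesmosome protein, Dsg1b (-8.04), Dsc1 (-6.96) and Dsg1a (-5.60), desmosomal cadherins of upper layers.

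Transcription factors and Notch pathway genes known from suprabasal differentiation split in both directions. Of 23 tested in KO proximal stomach, 12 fell and 3 rose, with a median of -0.75, where 18.1% of all genes rose and 14.6% fell. Tfap2a changed by -5.85, Cebpa by -2.31, the Notch ligand gene Jag2 by -1.85 and Elf3, a factor of simple and differentiating epithelia, by 1.88. Genes that activated keratinocytes make along with Krt6 and Krt16 fell in 7 of 14 cases and rose in 1 (Stat3, 0.46, named after its value was seen), with a median of -0.46. Among them Defb4, an antimicrobial peptide gene, changed by -8.72, Slpi by -7.04, Serpinb2 by -5.80 and S100a9 by -2.17.

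Markers of other cell types moved with genotype in proximal stomach, where 18.1% of all genes rose and 14.6% fell. The mean level of 7 urothelium markers was 11.47 to 11.66 on the KO arrays, against 8.23 to 8.69 on the WT arrays, and 6 of 7 rose. The mean of 8 gastric gland markers was 7.32 to 8.34 in KO, against 5.74 to 5.94 in WT, and 5 of 8 rose. Of 7 intestinal markers, Vil1 (4.89) and Cdh17 (0.73) rose and Lgals4 (-0.45) fell. The mean of 4 epithelial markers (Epcam, Cdh1, Krt8 and Krt18) was 13.99 to 14.08 in KO, against 12.39 to 12.61 in WT, and 4 of 4 rose. Krt18 (3.76) and Krt8 (0.92) are also among the simple-epithelial keratins counted above, while Epcam rose by 0.97 and Cdh1 by 0.46. Skeletal muscle markers went the other way, at 6.51 to 6.97 in KO against 7.93 to 8.69 in WT, with 3 of 6 lower. Of 10 markers of skin appendages and melanocytes, 0 lay above the array median on any of the 4 arrays. An RNA quality measure, the 3′ minus 5′ actin probe set, was 0.48 and 0.61 in KO, against 0.97 and 0.88 in WT, and the part of these markers and of this measure in the keratin changes was not tested.

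The Trp63 transcript was present in KO tissue. In proximal stomach it had 13.67 and 13.78 on the KO arrays, against 13.16 and 13.31 on the WT arrays, and in bladder E18 it had 11.37 and 11.26 in KO, against 12.29 and 12.54 in WT. Neither difference was called, but with limma run on each probe set on its own, the 2 other tested probe sets of Trp63 were higher in KO proximal stomach, by 0.91 (adjusted p = 0.0010) and 1.63 (adjusted p = 3.17e-04), and the first was lower in KO bladder E19 by 2.44 (adjusted p = 1.42e-04). Where its probe sets lie with respect to the deleted sequence is unstated, so these levels check nothing about the labels. Krt5 and Krt14 did differ between the genotypes, as given above.

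In bladder, Krt1 was called at E18, Krt13 was called at E19 and no member was called at E15. The changes of Krt1, Krt10, Krt6b and Krt16 were smaller than in proximal stomach at each bladder stage. Those of Krt4 at E18 (-1.48, not called) and Krt13 at E19 (-1.63) were larger than in proximal stomach (-0.04 for each gene). At E15, 0 of 6 members were called with limma and 0 had an unadjusted p under 0.05, where 7.04% of all genes were called. At E18, 1 of 6 was called, where 3.24% of all genes were, and 4 had an unadjusted p under 0.05. At E19, 1 of 6 was called, where 20% of all genes were. The median changes of the 6 were -0.06, -0.89 and -0.35 at E15, E18 and E19.

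Krt1 was the member called at E18. It had 5.39 and 5.39 on the KO arrays, against 6.42 and 6.58 on the WT arrays, a change of -1.11 (SE 0.26, adjusted p = 0.0223 in limma). All 4 values lay below the array median, and the call was lost without any single one of the 4 arrays (adjusted p from 0.0848 to 0.189). At E15 Krt1 had 6.86 and 6.30 in KO and 6.52 and 6.76 in WT, and at E19 it had 6.87 and 6.94 in KO and 7.11 and 7.14 in WT, and neither difference was called. Krt10 was not called at any bladder stage, with changes of 0.04, 0.08 and 0.14.

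Krt13 was the member called at E19. It had 4.93 and 5.35 on the KO arrays, against 6.88 and 6.65 on the WT arrays, a change of -1.63 (SE 0.27, adjusted p = 3.38e-04 in limma). All 4 values lay below the array medians, and the KO mean was the lowest of the 14 groups, so the size of the decrease is uncertain. At E18 it had 6.16 and 6.46 in KO and 7.04 and 6.92 in WT, a difference of -0.67 that was not called (adjusted p = 0.233), and at E15 the groups overlapped. A second probe set of Krt13 differed by -0.45 at E19 (adjusted p = 0.217 in limma, each probe set on its own), so the probe sets disagree on the call. The levels are far from those of proximal stomach, where the same probe set read 14.57 to 14.69 on all 4 arrays.

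Krt4 was detected in bladder above the array median at each stage, and its 2 KO arrays at E18 disagreed. It had 9.02 and 8.75 in KO and 8.21 and 8.14 in WT at E15, then 11.09 and 8.15 in KO and 11.42 and 10.77 in WT at E18, and 9.74 and 9.35 in KO and 9.50 and 9.41 in WT at E19. The E18 difference was -1.48 (SE 0.54, adjusted p = 0.167 in limma). Without the first KO array it was -2.95, whereas the KO value left without the second, 11.09, lay at the WT mean of 11.10. The second Krt4 probe set split the same arrays, at 10.18 and 7.86 in KO and 10.47 and 9.92 in WT. The mean level of the skeletal muscle markers also spread across the KO E18 arrays, from 9.46 to 10.78, against 9.08 to 9.27 in WT. The part of these markers was not tested.

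Krt6a was lower in KO bladder at E18 and E19 by each of its probe sets, but only some of these differences were called. By the highest-mean probe set it had 6.21 and 6.46 in KO and 7.94 and 7.41 in WT at E18, and 7.72 and 7.44 in KO and 9.36 and 8.08 in WT at E19. The groups did not overlap at either stage, but the changes of -1.34 (adjusted p = 0.250) and -1.14 (adjusted p = 0.166) were not called. A second probe set had 5.58 and 5.07 in KO and 8.01 and 7.33 in WT at E18, and 5.75 and 5.73 in KO and 10.29 and 8.36 in WT at E19. With limma run on each probe set on its own, its changes of -2.35 (adjusted p = 0.0447) and -3.59 (adjusted p = 3.76e-04) were called, where 2.4% of probe sets were called at E18 and 19.8% at E19. The third probe set of Krt6a changed by -1.15 (adjusted p = 0.245) at E18 and by -1.37 (adjusted p = 0.0394) at E19. Krt6b stayed at 3.27 to 4.93 on all 24 arrays outside proximal stomach and was not called in bladder, nor was Krt16, which had 5.27 and 5.68 in KO and 6.50 and 5.17 in WT at E19.

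**Figure D4:**
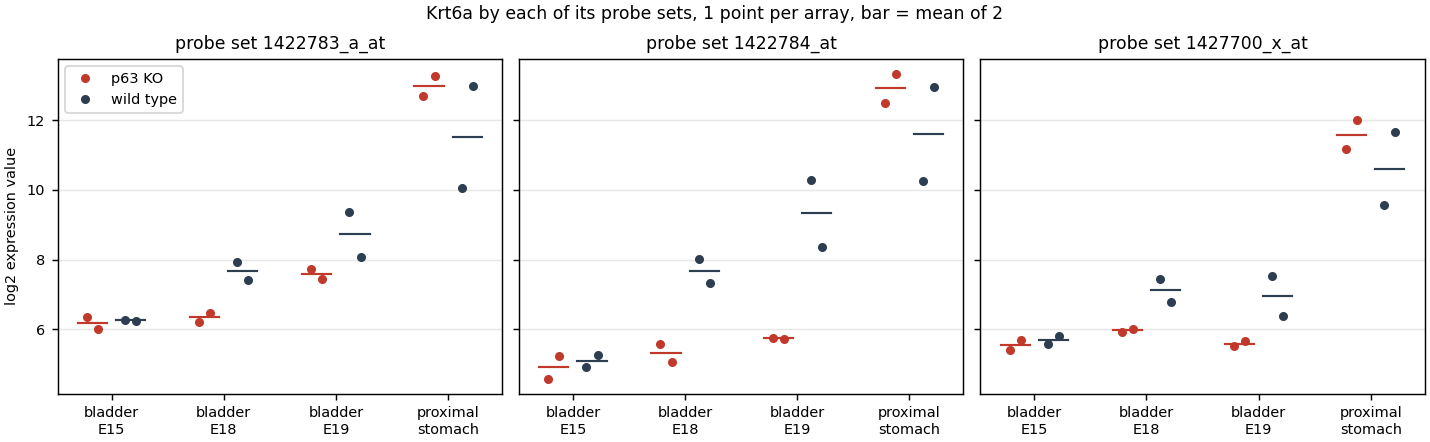
Level of Krt6a (log2 expression value, vertical axis) by each of its 3 probe sets in bladder E15, E18 and E19 and proximal stomach (horizontal axis), with KO left of WT, 1 point per array and a bar at the mean. KO points lie below WT points at bladder E18 and E19 in each panel, and 1 low WT array in proximal stomach recurs in each panel.

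Several members were called between bladder stages in each genotype, at shares near or below those of all genes. From E15 to E18, 3 of 6 members were called in WT bladder, where 45% of all genes were, with Krt4 up by 2.92, Krt13 by 1.59 and Krt6a by 1.42. In KO bladder 2 of 6 were called over the same interval, where 46.7% of all genes were, with Krt13 up by 0.99 and Krt1 down by 1.19. With the actin covariate for RNA quality neither KO call held (Krt1 -0.81, adjusted p = 0.572, and Krt13 adjusted p = 0.149), and averaging the probe sets of Krt13 gave 0.27 (adjusted p = 0.300). The 3′ minus 5′ actin value was 1.33 and 1.12 on the KO E15 arrays, the highest of the 28 arrays, against 0.69 and 0.78 in WT at E15. The Krt6a call in WT was lost under 8 alternatives, among them each single array left out, and the Krt13 call in KO was lost without the first E15 array (adjusted p = 0.0579) or the second E18 array (adjusted p = 0.0615). None of the 6 members was called for the difference of the KO effect between E18 and E15, where 0.61% of all genes were called, although 2 had an unadjusted p under 0.05.

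Between E18 and E19, 3 of 6 members were called in KO bladder, where 60.5% of all genes were, with Krt1 up by 1.51, Krt10 by 0.76 and Krt13 down by 1.17. In WT bladder 4 of 6 were called, where 63.1% of all genes were, with Krt6b up by 1.12, Krt10 by 0.70, Krt1 by 0.63 and Krt4 down by 1.64. The second Krt4 probe set did not show this decrease, with 10.44 and 10.34 at E19 against 10.47 and 9.92 at E18 in WT, and with the mean of both probe sets the change was -0.72 (adjusted p = 0.208). The medians of the 4 E19 arrays were 7.48 to 7.53 and those of the 24 other arrays 7.73 to 7.86, so stage and array scale cannot be told apart here. Centring the arrays moved the median change of all genes from -0.01 to 0.30 in KO and from -0.08 to 0.15 in WT. After centring, 5 of 6 members were called in KO, with Krt13 down by 0.86 and Krt6a up by 1.56. The Krt1 call in WT was lost without any single one of the 4 arrays (adjusted p from 0.0762 to 0.172), and the Krt4 call in WT was lost without the first E18 array (-1.32, adjusted p = 0.102) or the second E19 array (-1.60, adjusted p = 0.0525). For the difference of the KO effect between E19 and E18, 0 of 6 members were called, where 5.27% of all genes were, and 2 had an unadjusted p under 0.05.

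The basal keratins fell in KO bladder, at stages where at most 1 of the 6 suprabasal and stress keratins was called. At E18, 3 of 4 basal keratins fell, with Krt5 at 7.61 ± 0.24 in KO against 12.44 ± 0.38 in WT, Krt15 at 10.22 ± 2.15 in KO against 14.19 ± 0.11 in WT and Krt14 at 8.35 ± 0.27 in KO against 10.48 ± 1.29 in WT (SD, n = 2 each). At E19, 3 of 4 fell, with Krt5 changed by -5.01, and at E15, 2 of 4 fell, with Krt5 changed by -1.24. None of 18 cornified envelope genes was called at E18, and at E19 only Ivl, the envelope precursor involucrin, was (-1.82). At E15, 1 of 18 was called (Rptn, 1.40). Of 14 junction genes, 4 rose at E15, among them Evpl (1.54) and Ppl (1.23), which encode the plakins that link envelope and filaments. At E18 Evpl rose (0.73) and the desmosomal plaque gene Pkp1 fell (-1.88), and at E19 the desmosome genes Perp (-0.96) and Dsp (-0.57) fell. Over all genes, 4.55% rose and 2.49% fell at E15, 1.56% rose and 1.67% fell at E18, and 13.5% rose and 6.50% fell at E19.

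Among regulators, Cebpa (-1.88), Jag2 (-1.83) and Notch1 (-0.95) fell at bladder E18 and Prdm1 (0.92) rose, out of 23 tested. Of all genes, 1.56% rose and 1.67% fell at that stage, 4.55% and 2.49% at E15, and 13.5% and 6.50% at E19. At E15 Klf5 (1.25), Ovol1 (1.19), Elf3 (0.90), Ehf (0.83), Grhl1 (0.76) and Zfp750 (0.71) rose, and Maf (-0.62), Notch1 (-0.53) and Notch2 (-0.46) fell. At E19 Ovol1 (1.28), Elf3 (1.25), Prdm1 (0.75) and Ehf (0.58) rose, and Trp63 (-2.44), Notch1 (-0.71), Jag2 (-0.68) and Cebpa (-0.57) fell. All called regulators of these stages are named here. Among activated keratinocyte genes at E18, S100a8 (2.68) and Tgfa (0.86) rose and Nfe2l2 (-0.68) fell, out of 14. Tgfa also rose at E15 (0.855) and E19 (0.61), and Ereg (-1.54) and Egfr (-0.48) fell at E19. Urothelium markers were above the median in 7 of 7 cases on all bladder arrays at E18, with means of 13.74 to 13.77 in KO against 13.39 to 13.53 in WT, and none of the 7 was called. At E15 their means were 13.18 to 13.29 in KO against 12.27 to 12.42 in WT, and 3 of 7 rose (Snx31 1.61, Upk3b 0.80 and Upk3a 0.73). At E19, where Krt13 was called, the means were 13.16 to 13.18 in KO against 12.79 to 12.83 in WT, and 1 of 7 rose (Upk3b, 0.50). At E19, where 13.5% of all genes rose, some markers of other cell types were also higher in KO. These were 2 of 8 gastric gland genes (Gkn2 2.59, Gkn3 2.57), 3 of 7 intestinal genes (Vil1 1.74, Lgals4 1.42, Cdh17 1.11), the immune gene Ptprc (1.44) and the melanocyte gene Dct (1.81). Vil1 also rose at E15 (1.35) and E18 (1.37), and Lgals4 at E18 (1.68). At E15 the skeletal muscle genes Acta1 (1.97) and Myh8 (1.70) rose and the fibroblast gene Lum fell (-0.71). The part of these markers in the keratin values was not tested.

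In glandular stomach and intestine none of the 6 members was called. In distal stomach 0 of 6 members were called with limma, where 0% of all genes were called and 528 had an unadjusted p under 0.05. The same held for the small intestine, with 0 of 6 members, 0% of all genes and 626 genes at an unadjusted p under 0.05. In the large intestine 0 of 6 members were called, where 0.0882% of all genes were. Krt13 in distal stomach was the single member of the 6 with an unadjusted p under 0.05 in any of these 3 tissues. It had 6.60 and 7.74 in KO, against 6.17 and 5.75 in WT, and its 1.21 had an adjusted p of 0.427 in limma. The difference was 1.78 without the first KO array, whereas the KO value left without the second, 6.60, stood against a WT mean of 5.96. Krt4 had 6.38 and 7.28 in KO, against 6.04 and 5.60 in WT, and Trp63 had 7.38 and 8.73 in KO, against 7.03 and 7.20 in WT, so the second KO array was highest for all 3 genes, and the part of that array was not tested.

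The KO effect on the keratins differed between tissues by a direct test. Between proximal stomach and bladder E18, 4 of 6 members differed, where 22.8% of all genes did. Krt1 differed by -6.00 and Krt10 by -4.09, with KO minus WT at -1.11 for Krt1 and 0.08 for Krt10 in bladder, and Krt6b differed by -2.03. Krt6a differed by 2.80 (adjusted p = 0.0143 in limma), with KO minus WT at 1.46 in proximal stomach and -1.34 in bladder. The Krt6a difference was 1.33 (adjusted p = 0.0930) without the first WT proximal stomach array, and its call was also lost without the second KO proximal stomach array (adjusted p = 0.0656) or the first WT bladder array (adjusted p = 0.0558), with the actin covariate (2.48, adjusted p = 0.119) and with only the arrays compared (adjusted p = 0.0772). Krt4 and Krt13 were not called for this difference, and Krt16 differed by -2.63 in the model without the filter, where 17.3% of genes did. Against the mean KO effect of distal stomach, small intestine and large intestine, 3 of 6 members differed (Krt1, Krt10 and Krt6b), where 28.9% of all genes did.

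The members tracked each other across the 14 groups to different degrees, as a description that rests largely on the proximal stomach groups. Over group means, Pearson's r was 0.967 between Krt1 and Krt10, 0.822 between Krt4 and Krt13, and 0.913 between Krt6a and Krt6b. Krt13 was also close to Krt6b (0.944) and Krt6a (0.919), and Krt16 to Krt10 (0.899). Outside the keratin set, the tested genes most like Krt10 were Cdsn (0.992), Defb6 (0.990) and Sprr2i (0.988), and those most like Krt1 were Acsbg1 (0.971), Lce1b (0.971) and Sprr2i (0.970). Lce1b averaged 4.98 in KO and 12.83 in WT proximal stomach.

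Picked by correlation over the same group means, the genes most like the mucosal pair had to be high in both proximal stomach groups. Those most like Krt13 were Tmprss11d (0.982), Cnfn (0.975) and Sprr3 (0.971), and those most like Krt4 were Ecm1 (0.967), Tmprss11a (0.964) and Ppl (0.963). Tmprss11d, a membrane serine protease gene of airway and other squamous linings, averaged 9.13 in KO and 9.18 in WT proximal stomach, Sprr3, a small proline-rich protein gene of oesophagus, 13.98 in KO and 14.60 in WT, and Ppl, encoding periplakin, 13.05 in KO and 13.21 in WT. Cnfn, a cornified envelope gene, averaged 12.98 in KO and 14.05 in WT, and was among the genes that fell. Krt6a was most like Cd5 (0.976), Prss27 (0.970) and Nccrp1 (0.966), and Krt6b most like Nebl (0.989), Tprg (0.987) and Gm14137 (0.985).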

How the data were processed

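The authors deposited 1 log2 expression value per probe set and array for 28 arrays. Per the submitters' processing notes the software was Affymetrix Expression Console and Partek. How probes were corrected for background, summarized and normalized is not stated in the sources used here, and compression of high or low values by these steps was not tested. RNA was extracted with Trizol and labelled with a 3′ IVT kit, per the labels' protocols, so probe sets far from the 3′ end depend on RNA quality.

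The deposited log2 values were taken without further normalization. From 45101 probe sets, 64 controls were removed. Of the 45037 remaining, 34945 carried 1 gene symbol, 932 several and 9160 none, and 34741 symbols equalled that of RefSeq's GRCm38.p6 annotation. A gene was represented by its highest-mean probe set among the 24427 with 1 symbol that lay above the array's median on at least 2 arrays. Limma 3.58.1 in R 4.3.3 (data.table package, version 1.17.8) fitted all 28 arrays with 14 group means, 14 residual and 6.19 prior degrees of freedom and a variance trend, with two-sided p-values. Figures used Python 3.11.15. The array medians were 7.48 to 7.86 and the 2 arrays of a group correlated at 0.980 to 0.994, and precision is limited by the number of arrays.

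The members, the gene lists and the comparisons were chosen with earlier results of these data known. Named were each member and its probe sets, up to 4 called genes with the largest change in each list, and the 3 genes most like each tested member, with exceptions marked in the text. On data simulated for the proximal stomach comparison over 13613 genes, with 50 genes changed at each size, limma recovered 30% of changes of 0.5, 82% of 1, 96% of 2 and 100% of 3. Promoter sequence was at hand for Krt10 and Krt13, and that of the other members was not used here. Alternatives covered the filter, the choice of probe set, centring, quantile normalization, the variance trend, array weights, an actin covariate for RNA quality, the arrays in the fit, a replicate block and each array left out.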

Additional observations from a re-analysis of the deposited data

Results flagged for a closer look

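All 9 results here are KO effects (KO minus WT, log2) that differed between tissues by a direct test in limma. Between proximal stomach and bladder E18, the KO effect differed by -6.00 for Krt1 (SE 0.37, adjusted p = 1.37e-10), by -4.09 for Krt10 (SE 0.21, adjusted p = 6.32e-12), by -2.03 for Krt6b (SE 0.37, adjusted p = 4.27e-04) and by 2.80 for Krt6a (SE 0.80, adjusted p = 0.0143). The Krt6a difference was 1.33 (adjusted p = 0.0930) without the first WT proximal stomach array, and its call was lost with the actin covariate (2.48, adjusted p = 0.119) and with only the arrays compared (adjusted p = 0.0772). Krt16 differed by -2.63 (SE 0.47, adjusted p = 4.09e-04) in the model without the filter, where 17.3% of genes were called.

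Between proximal stomach and the mean of distal stomach, small intestine and large intestine, the KO effect differed by -7.04 for Krt1 (SE 0.30, adjusted p = 2.05e-13), by -4.17 for Krt10 (SE 0.17, adjusted p = 8.43e-14) and by -1.95 for Krt6b (SE 0.31, adjusted p = 4.52e-05). Krt16 differed by -2.62 (SE 0.39, adjusted p = 2.78e-05) in the model without the filter, where 22.3% of genes were called.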

How the results depend on the processing

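In proximal stomach 2 to 4 members were called under the alternatives run, with Krt1 and Krt10 among them each time. Elsewhere the number of members called moved with single choices. With the highest-variance probe set it was 2 at bladder E18 and 2 at bladder E19, with the mean of a gene's probe sets it was 2 at bladder E19 and 1 between KO bladder E18 and E15, and with only the arrays compared it was 2 at bladder E18. A filter at the 75th percentile left 2 between WT bladder E19 and E18, the actin covariate left 0 between KO bladder E18 and E15, and median centring or array weights gave 5 between KO bladder E19 and E18. With each array left out in turn, the number ranged from 0 to 1 at bladder E18, in distal stomach and for both differences between bladder stages, from 2 to 3 between WT bladder E19 and E18 and from 1 to 2 between KO bladder E18 and E15.

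Reversals of sign touched differences that were not called. The actin covariate gave -0.25 for Krt10, -0.023 for Krt4 and 0.40 for Krt6a at bladder E15, and 0.53 for Krt4 and 0.42 for Krt13 in proximal stomach. The mean of probe sets gave -0.028 for Krt4 at bladder E19, and 0.051 at bladder E15 and 0.065 in proximal stomach for Krt13, and median centring gave -0.0072 for Krt6b at bladder E18. With single arrays left out, Krt1 ranged from -0.34 to 0.22 at bladder E15, -0.53 to 0.14 in distal stomach, -0.18 to 0.36 in small intestine and -0.22 to 0.021 in large intestine. Krt10 ranged from -0.054 to 0.14 at bladder E15 and -0.048 to 0.34 at bladder E19. Krt4 ranged from -0.11 to 0.28 at bladder E19, -0.11 to 0.041 in proximal stomach and -0.072 to 0.79 in large intestine, and Krt13 from -0.20 to 0.066 at bladder E15 and -0.088 to 0.013 in proximal stomach. Krt6a ranged from -0.25 to 0.093 at bladder E15, -0.010 to 2.94 in proximal stomach and -0.36 to 0.083 in small intestine, and Krt6b from -0.050 to 0.15 at bladder E18, -0.023 to 0.17 in distal stomach and -0.27 to 0.085 in large intestine. The causes were not tested.

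The count over all genes called fell to 3 with the actin covariate at bladder E15 and to 2059 in proximal stomach, against 959 and 4448, and at bladder E18 it was 716 when arrays were weighted and 291 from the compared arrays alone, against 441. The labels do not say what replicate numbers share. Deviations of same-numbered KO and WT arrays correlated at 0.25 in proximal stomach. Over the 7 comparisons the correlations were -0.13 to 0.28, above 0.1 in 3 of them, which does not settle whether the numbers mark pairs. The main model did not take the numbers as pairs, since the labels do not say so. With the replicate block, Krt6a in proximal stomach was called (1.46, adjusted p = 0.0129) and 4 of 6 members were called there, against 3 without it. Signal near the top of the scale limits Krt4 and Krt13 in proximal stomach, and signal below the array median limits Krt1, Krt13, Krt6b and Krt16 elsewhere.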
